A study of Homo sapiens with 6 samples.

Results

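The 9 genes described here supply the deoxynucleotides from which DNA is built. They are RRM1, RRM2 and RRM2B, which encode the subunits of ribonucleotide reductase, TYMS, DUT, DTYMK and TK1 on the thymidylate route, and DCK and SAMHD1 in salvage and breakdown. They were taken by gene symbol from the 57773 rows of a table of RNA sequencing counts. Each symbol matched 1 row, and 9 of 9 passed the filter on low counts, beside 16290 genes tested in all. After treatment of SW872 liposarcoma cells with Apatinib, the fitted level of each of the 9 was below the control, and RRM2 and RRM1 met the criteria for a differentially expressed gene (DEG).

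Ribonucleotide reductase converts ribonucleotides into deoxyribonucleotides. The large subunit RRM1 carries the catalytic site and is present through much of the cell cycle, whereas the small subunit RRM2 supplies the radical for catalysis, accumulates in S phase and is degraded afterwards. RRM2B is the small subunit that p53 induces and that serves quiescent or damaged cells. TYMS makes thymidylate from deoxyuridylate with a folate cofactor, DUT supplies that deoxyuridylate by cleaving dUTP, and DTYMK phosphorylates thymidylate. TK1 and DCK return thymidine and deoxycytidine to the pool by salvage, and SAMHD1 cleaves deoxynucleoside triphosphates.

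SW872 is an established human liposarcoma cell line, grown here in RPMI-1640 medium with serum. In the Apatinib group, 3 replicates were exposed to 18 μM Apatinib, an inhibitor of the receptor tyrosine kinase VEGFR2, for 24 h, and the 3 replicates of the control group are labelled as having no treatment. A single line, dose and time point limit the model.

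The libraries held between 17043314 and 22067558 counts. Among markers, VIM ranged from 881 to 1263 FPKM, which scales the fragments of a gene to its length and to the library size, PPARG from 19.7 to 27.1 FPKM and LPL from 1.54 to 4.45 FPKM, while the adipocyte genes FABP4 and ADIPOQ were listed at 0 in all 6 libraries. Of further mesenchymal genes, PDGFRB ranged from 26.8 to 40.8 FPKM. COL1A2 ranged from 4.79 to 7.16, COL1A1 from 3.49 to 4.57 and THY1 from 1.02 to 1.81 FPKM. The epithelial keratins KRT8, at 21.0 to 41.4 FPKM, and KRT18, at 133 to 184 FPKM, were present although EPCAM and CDH1 stayed at or below 0.130 FPKM. Of the immune and vascular genes, CD14 ranged from 0.879 to 1.90 FPKM, and CD68 from 1.79 to 11.8 FPKM with 0 to 1 counts per library. PTPRC was listed at 0, and KDR, VWF and CDH5 stayed at or below 0.0784, 0.252 and 0.432 FPKM. Control replicates 1 and 2 lay closer together than any other pair of a group. The chi-square between them, averaged over genes, was 2.27 against 18.2 to 44.5 for the other pairs of a group, where sampling noise alone gives 1. Across the groups it ran from 26.5, for Apatinib replicate 3 and Control replicate 3, to 78.4, for Apatinib replicate 1 and Control replicate 2. Some pairs across the groups were thus closer than Apatinib replicates 1 and 2, at 44.5. Control replicates 1 and 2 differed by more than that noise and were kept as separate samples, but repeat libraries of 1 culture could also differ by this much. The study's methods call the replicates biological, and if these came from 1 culture the control group would hold fewer independent samples than its n of 3.

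The 9 genes shared a direction, and few of them passed the test. In CPM, the counts of a gene scaled to the library size, the Apatinib replicates all lay below the control replicates for 8 of 9 genes, where 15.7% of all genes tested separated in that direction, and RRM2B was the gene whose groups overlapped. In FPKM the separation held for 7 of 9, because DCK then overlapped as well. With the criteria of a false discovery rate (FDR) under 0.05 and an absolute log2 fold change above 0.5, edgeR called 2 of the 9 as lower with Apatinib. Over all genes, 1866 DEGs made up 11.5% of those tested, and 893 lower ones made up 5.48%. The median log2 fold change was -0.49 over the 9 genes and 0.00 over all genes. An unadjusted p under 0.05 was reached by 8 of the 9 and by 4979 of the 16290 genes.

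The calls leaned on the 2 close controls. When Control replicates 1 and 2 were summed to 1 sample, a new fit over 16731 genes called 292 (1.75%) in all and 0 of the 9. Without Control replicate 1 the numbers were 275 (1.65%) and 0, and without Control replicate 2 they were 300 (1.8%) and 1. Leaving out Apatinib replicate 1 gave 795 DEGs (4.73%) with 2 of the 9, leaving out Apatinib replicate 2 gave 1493 (8.91%) with 2, leaving out Apatinib replicate 3 gave 2030 (12.1%) with 4, and leaving out Control replicate 3 gave 2594 (15.5%) with 3. In the other direction, DESeq2 called 4 of the 9, and 2054 of 14901 genes in all (13.8%). The sign of every one of the 9 fold changes stayed negative under all these settings.

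**Figure D1:**
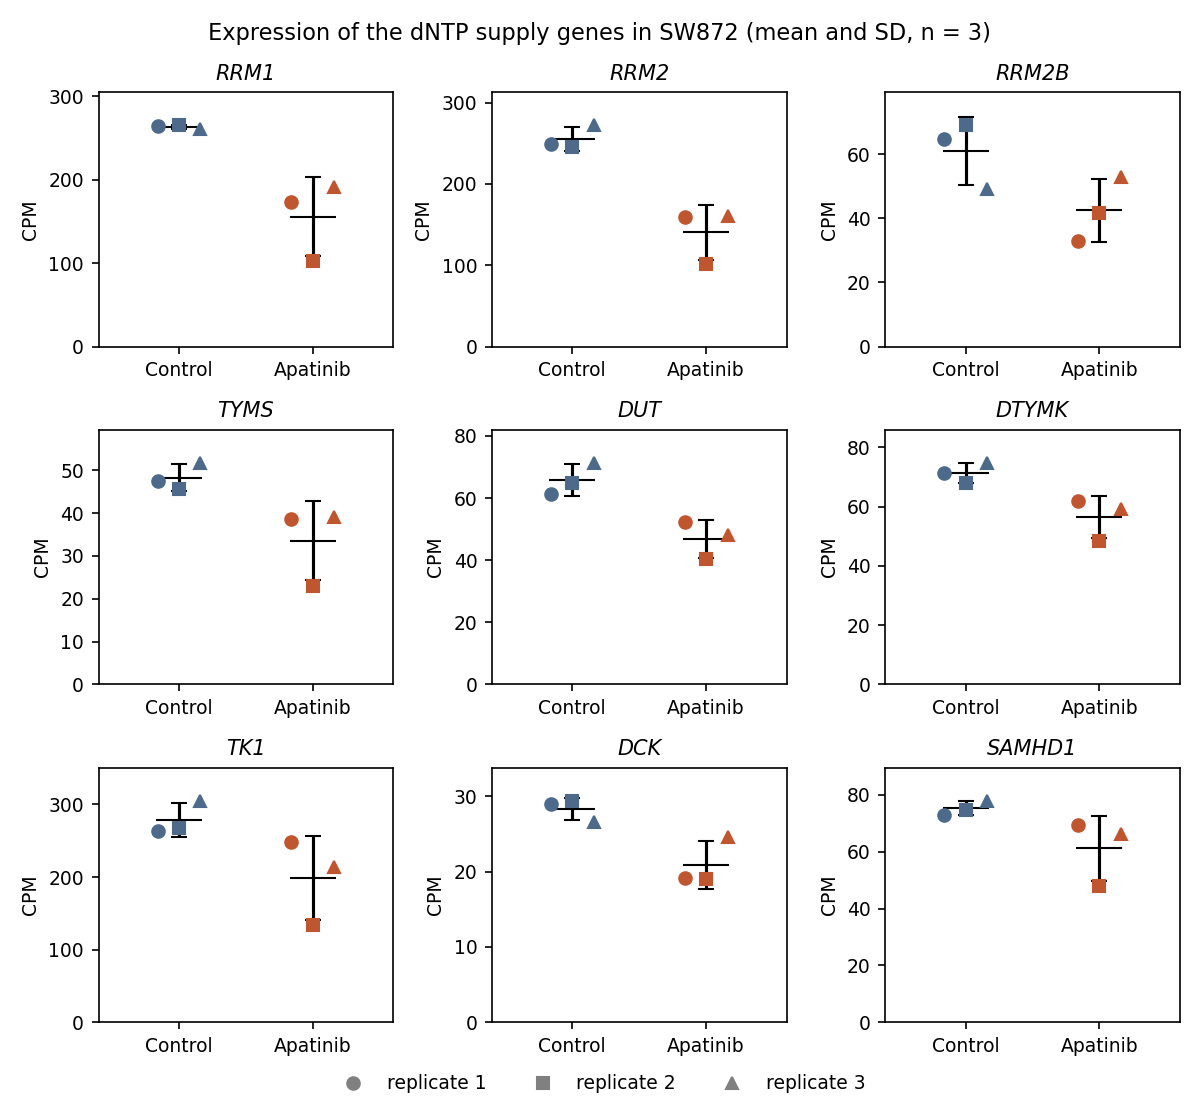
CPM (vertical axes) of the 9 genes in the 3 control and 3 Apatinib replicates, 1 panel a gene, with points for replicates and a line with its error bar for the mean and SD of 3. Apatinib replicate 2 is the lowest point for 8 of the 9 genes, and RRM2B is the panel in which the groups overlap.

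RRM2 (ENSG00000171848) fell the most of the 9. The control replicates gave 249, 245 and 272 CPM for replicates 1, 2 and 3, and the Apatinib replicates gave 160, 101 and 161 CPM in the same order. All Apatinib values were below the lowest control, and the gap was wider than the spread inside either group. The group means were 255 ± 14.8 CPM (SD, n = 3) in the control group and 141 ± 33.8 CPM (SD, n = 3) in the Apatinib group, and the fitted level fell by 44.96%. In edgeR the log2 fold change was -0.86 with a standard error of 0.168, a 95% interval from -1.23 to -0.49 and an FDR of 0.0117, which placed the gene at rank 399 by p. The call was lost without Control replicate 1 (log2 fold change -0.88, FDR 0.0521) and with both close controls summed (FDR 0.0501).

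RRM1 (ENSG00000167325), the catalytic partner, was in CPM the steadiest of the 9 genes in the control group and the most variable in the Apatinib group. The control replicates read 264, 265 and 261 CPM, whereas the Apatinib replicates read 174, 103 and 191 CPM. The coefficient of variation of the CPM was 0.88% in the control group and 30.0% in the Apatinib group, while counting error alone gave between 1.32% and 2.34% per library. Means were 264 ± 2.32 CPM (SD, n = 3) in the control group and 156 ± 46.8 CPM (SD, n = 3) in the Apatinib group, and the fitted level fell by 40.8%. In edgeR the log2 fold change was -0.76 with a standard error of 0.192, a 95% interval from -1.18 to -0.34 and an FDR of 0.0290. RRM1 was less secure than RRM2, since the call was lost without Apatinib replicate 1 (FDR 0.0513), without Control replicate 1 (FDR 0.0993) and without Control replicate 2 (FDR 0.1004), as well as with the 2 controls summed (FDR 0.102).

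The third subunit gene, RRM2B (ENSG00000048392), behaved differently from both partners in its replicates. It was measured at 64.8, 69.0 and 49.2 CPM in the control replicates and at 33.0, 41.8 and 52.7 CPM in the Apatinib replicates. Apatinib replicate 3 therefore stood above Control replicate 3, and the lowest library was Apatinib replicate 1 rather than replicate 2. The means were 61.0 ± 10.5 and 42.5 ± 9.86 CPM (SD, n = 3 each). The edgeR log2 fold change of -0.52 (95% interval -0.92 to -0.12) had an FDR of 0.0805 and was not called. It was called by DESeq2 (FDR 0.0437), and also without Apatinib replicate 3 (FDR 0.0380) or without Control replicate 3 (FDR 0.0244).

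The stretches before the starts of RRM2 and RRM1 are shown because both genes were called and both hold the letters CCAAT, the core bound by NF-Y, which recurs in promoters of cell cycle genes. They were copied from RefSeq promoter windows on GRCh38.p14, on the plus strand. Each runs from 140 bases before an annotated start through the first 10 bases of the transcript. They lie at chr2:10122599-10122748 for RRM2 and chr11:4094545-4094694 for RRM1. RRM2 had 2 annotated starts and RRM1 had 1. For RRM2 the stretch with the most matches, to CCAAT or to the E2F-type letters given below, is shown. Capitals mark CCAAT.
RRM2: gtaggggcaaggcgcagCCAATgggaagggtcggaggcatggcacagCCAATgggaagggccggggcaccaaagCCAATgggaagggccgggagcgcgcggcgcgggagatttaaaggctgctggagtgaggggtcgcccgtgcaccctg
RRM1: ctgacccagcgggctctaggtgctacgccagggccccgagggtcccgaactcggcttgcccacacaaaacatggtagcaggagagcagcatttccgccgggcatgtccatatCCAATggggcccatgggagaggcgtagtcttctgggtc
RRM2 held 3 copies in this stretch, which began at positions -123, -93 and -66 from the start, and RRM1 held 1 copy at -28. The window of the other RRM2 start held CCAAT at -249 only, outside a stretch of this length. CCAAT on either strand was found in a promoter window of 5 of the 8 genes that had one (RRM1, RRM2, DTYMK, TK1 and SAMHD1) and of 39.7% of 27305 genes in the table, so its presence alone sets these promoters little apart. No window was matched for RRM2B.

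Within the enzyme, the balance of subunits could not be told apart between the groups. The ratio of RRM2 to RRM1 in FPKM was 0.727, 0.714 and 0.779 in the control replicates and 0.704, 0.759 and 0.631 in the Apatinib replicates. The log2 ratio differed by -0.09 between the group means (exact two-sided permutation test, p = 0.4, adjusted p = 0.533 over 4 ratios). For RRM2 to RRM2B the ratio was 5.14, 4.65 and 6.997 in the control replicates and 6.47, 2.85 and 3.81 in the Apatinib replicates, a log2 difference of -0.42 (exact permutation p = 0.4, adjusted p = 0.533). Without Apatinib replicate 1 or 2 the latter difference was -0.74 or -0.15, and the former was -0.15 when Apatinib replicate 2 was left out and -0.02 when Apatinib replicate 3 was. Both ratios overlapped between the groups, and with 3 against 3 replicates the test cannot give a p under 0.1.

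**Figure D2:**
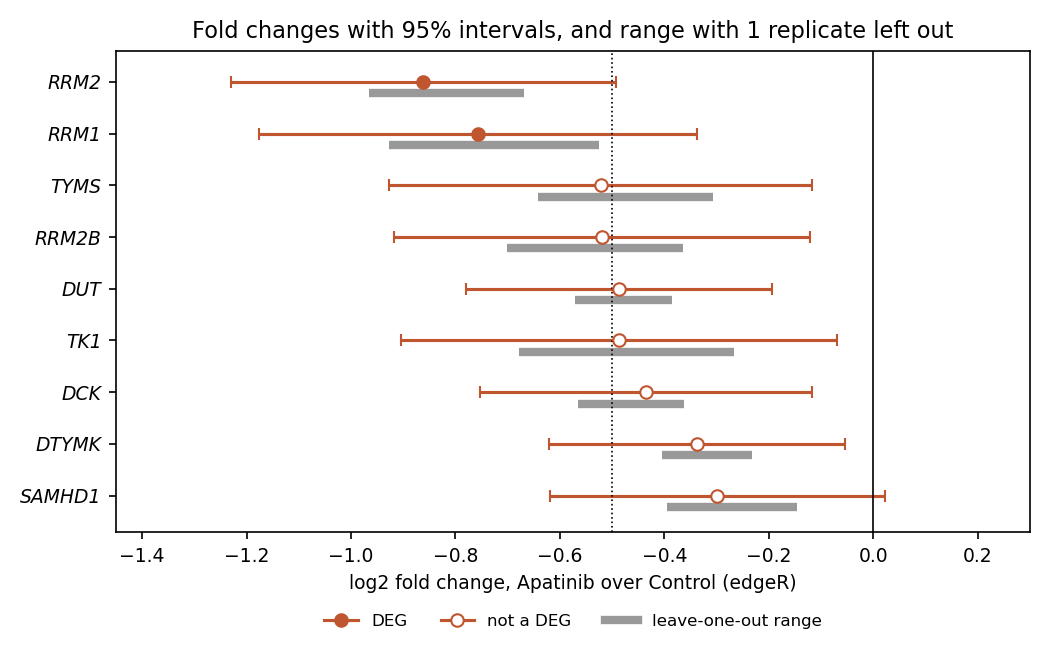
Log2 fold changes of the 9 genes, Apatinib over control, from edgeR (points) with 95% intervals (thin bars), and the range when each replicate was left out in turn (grey bars). The dotted line is the limit of -0.5, and the filled points are RRM2 and RRM1, the called genes.

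On the thymidylate route, TYMS (ENSG00000176890) was lower in every Apatinib replicate but was not called. It read 47.4, 45.5 and 51.7 CPM in the control replicates and 38.6, 23.1 and 39.1 CPM in the Apatinib replicates. The groups did not overlap, although Apatinib replicate 2 alone lay at 47.9% of the control mean while the other two lay at 80.1% and 81.1%. The means were 48.2 ± 3.14 and 33.6 ± 9.11 CPM (SD, n = 3 each). In edgeR the log2 fold change was -0.52 with a standard error of 0.185, a 95% interval from -0.93 to -0.12 and an FDR of 0.0833. DESeq2 gave -0.52 and an FDR of 0.0479, a call just inside its limit, and without Apatinib replicate 2 the edgeR value was -0.31.

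TYMS was also the gene whose counts and FPKM values differed most in scale. In FPKM it stood at 87.9 ± 5.82 (SD, n = 3) in the control group and 60.2 ± 15.4 (SD, n = 3) in the Apatinib group, above RRM1 and RRM2, although its CPM was far lower than theirs. The gene length that makes its counts and its FPKM values match was 552 bases (range 525 to 578 over the 6 libraries), which is 33.2% of its longest transcript of 1662 bases in GENCODE release 29. The same share ran from 101% to 142% in the other 8 genes. In that annotation, 1150 of the 2470 exon bases of TYMS, or 46.6%, also lie in genes on the opposite strand, mainly ENOSF1, whose tail runs into that of TYMS. Whether reads shared with ENOSF1 were left out of the counts was not tested, and the strand setting of the counting is not given in the sources used here. ENOSF1, named after its values were seen, changed by -0.24 in log2 (edgeR FDR 0.356) at 20.4 CPM in the control group and 17.2 CPM in the Apatinib group. On the log2(FPKM + 1) scale, limma gave TYMS a fold change of -0.57 with an FDR of 0.0885, so that edgeR on counts and limma on FPKM both left it uncalled.

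**Figure D3:**
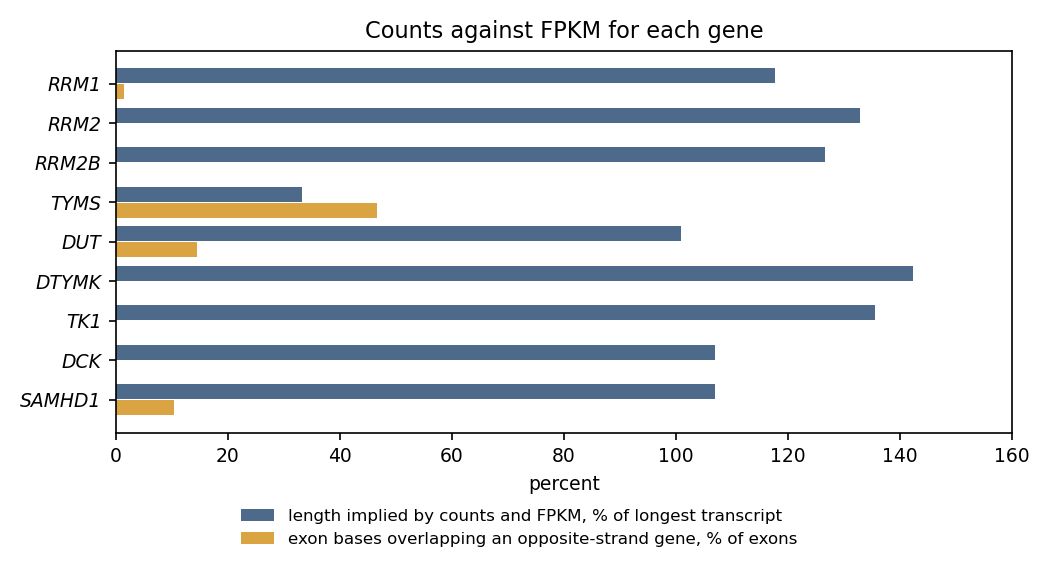
For each of the 9 genes, the length implied by its counts and FPKM values as a percentage of its longest GENCODE transcript (blue bars), and the percentage of its exon bases shared with a gene on the opposite strand (yellow bars). TYMS has the shortest blue bar, 33.2%, and the longest yellow bar, 46.6%.

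DUT (ENSG00000128951), which feeds deoxyuridylate to TYMS and keeps uracil out of DNA, had the smallest standard error of the 3 genes with an FDR under 0.05. Its control replicates were at 61.4, 64.7 and 71.2 CPM and its Apatinib replicates at 52.4, 40.4 and 48.0 CPM. The groups were apart, and the means were 65.8 ± 5.02 and 46.9 ± 6.10 CPM (SD, n = 3 each). The log2 fold change of -0.49 (95% interval -0.78 to -0.19, edgeR FDR 0.0377) passed the FDR limit and missed the limit of 0.5 on the fold change, so DUT was not a DEG. Without Apatinib replicate 1 it met both (log2 fold change -0.57, FDR 0.0480).

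DTYMK (ENSG00000168393), the kinase that both thymidylate routes share, showed one of the smaller differences. It gave 71.4, 68.1 and 74.7 CPM in the control replicates and 61.9, 48.4 and 59.2 CPM in the Apatinib replicates. The groups did not overlap, but the edgeR log2 fold change of -0.34 (95% interval -0.62 to -0.05) had an FDR of 0.104. TK1 (ENSG00000167900), the cytosolic thymidine kinase of S phase, went from 263, 268 and 305 CPM in the control replicates to 249, 134 and 213 CPM in the Apatinib replicates. Apatinib replicate 1 lay just below the lowest control, and replicate 2 was far below both other Apatinib replicates. Its log2 fold change was -0.49 (95% interval -0.90 to -0.07, edgeR FDR 0.110), which became -0.27 without Apatinib replicate 2.

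Stretches of the same length are given for TYMS, DUT and TK1, to compare these thymidylate genes with the reductase genes. Capitals mark an E2F-type match in TYMS and DUT and CCAAT, here as its reverse complement, in TK1. The E2F-type letters searched were TTTCCCGC, TTTGGCGC, TTTCGCGC and TTTGCCGC on both strands, and the stretches lie at chr18:657513-657662 (plus strand), chr15:48332057-48332206 (plus strand) and chr17:78187043-78187192 (minus strand) on GRCh38.p14, from RefSeq.
TYMS: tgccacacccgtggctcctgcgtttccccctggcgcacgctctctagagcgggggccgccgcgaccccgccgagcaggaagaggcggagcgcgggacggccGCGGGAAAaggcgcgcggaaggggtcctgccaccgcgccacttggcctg
DUT: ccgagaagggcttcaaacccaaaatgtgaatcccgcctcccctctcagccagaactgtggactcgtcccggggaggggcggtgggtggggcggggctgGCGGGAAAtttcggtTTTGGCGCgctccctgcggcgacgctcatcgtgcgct
TK1: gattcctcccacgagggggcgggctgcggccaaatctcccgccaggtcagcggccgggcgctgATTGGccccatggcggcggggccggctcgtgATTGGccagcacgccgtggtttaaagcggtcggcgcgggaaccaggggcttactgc
DUT had 4 annotated starts and TK1 had 2, and the stretch with the most matches is shown for each. Windows of the other DUT starts held no E2F-type match, and that of the other TK1 start held no CCAAT. The E2F-type match of TYMS began at -39 and those of DUT at -42 and -27, and DCK had 1 at 21 bases past its start. These letters were held by 3 of 8 genes here and by 3.99% of genes in the table. RRM2 and RRM1, the genes called as lower, held none of the E2F-type letters searched in their windows, and TYMS and DUT held no CCAAT. DTYMK, also on the thymidylate route but without a stretch shown, held CCAAT at -92 and -24 and no E2F-type match. The CHR-type letters TTTGAA or TTCGAA were held by RRM1, DUT and DTYMK, 3 of 8 against 19.5%, and TATAAA by TK1 alone, 1 of 8 against 13.99%. Such matches describe the letters and say nothing about binding in these cells.

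DCK (ENSG00000156136), which phosphorylates deoxycytidine and activates nucleoside drugs such as cytarabine and gemcitabine, was the gene with the fewest counts, from 330 to 581 per library. It gave 28.9, 29.4 and 26.6 CPM in the control replicates and 19.2, 19.0 and 24.6 CPM in the Apatinib replicates. These values were apart in CPM, but in FPKM Apatinib replicate 3 at 8.79 stood above Control replicate 3 at 8.54. The log2 fold change was -0.43 (95% interval -0.75 to -0.12) with an edgeR FDR of 0.0681, and without Apatinib replicate 3 it was -0.57 with an FDR of 0.0355.

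SAMHD1 (ENSG00000101347), the triphosphohydrolase that lowers deoxynucleotide pools, was nearest to no difference. Its control replicates were at 73.0, 74.8 and 77.8 CPM, and its Apatinib replicates at 69.3, 48.0 and 66.2 CPM. The groups were apart only narrowly, except for Apatinib replicate 2. The log2 fold change was -0.30 with a 95% interval from -0.62 to 0.02 and an edgeR FDR of 0.194, and it shrank to -0.15 without Apatinib replicate 2.

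Across the 9 genes, Apatinib replicate 2 was the lowest of its group in 8, and replicate 1 was the lowest for RRM2B. For DCK, replicates 1 and 2 were close, at 19.2 and 19.0 CPM with counting errors of 5.50% and 5.46%. Over all genes tested, replicates 1, 2 and 3 were the lowest Apatinib library for 33.9%, 35.3% and 30.7%. Among the genes called lower, replicate 1 was the lowest most often, for 53.8%, against 41.1% for replicate 2 and 5.15% for replicate 3. RRM2 in Apatinib replicate 2 stood at 39.8% of the control mean, RRM1 at 39.0%, TYMS at 47.9% and TK1 at 48.3%. In Apatinib replicate 1 the same genes stood at 62.5%, 65.9%, 80.1% and 89.3%, and in replicate 3 at 62.9%, 72.6%, 81.1% and 76.5%.

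Levels between genes were compared per length, in FPKM. In the control group TK1 was highest at 121 FPKM, followed by TYMS at 87.9, RRM1 at 71.2, RRM2 at 52.7, DTYMK at 40.2, DUT at 29.4, SAMHD1 at 12.7, DCK at 9.74 and RRM2B at 9.66 FPKM. The place of TYMS depends on the unit, given the gap between its counts and FPKM values. Each neighbour in this order was apart from the next over the 3 replicates, except DCK and RRM2B. With Apatinib the order of means placed DTYMK, at 32.4 FPKM, above RRM2, at 28.4 FPKM. Over replicates the ranges of most neighbours overlapped, and the only ones that were apart were DUT at 22.4 and SAMHD1 at 10.4 FPKM. Within libraries, RRM2 was above DTYMK in each of the 3 controls, whereas DTYMK was above RRM2 in each of the 3 Apatinib replicates, at 34.8 against 31.7, 28.9 against 21.0 and 33.6 against 32.6 FPKM for replicates 1 to 3. The order of this pair was noticed in the values and was not tested.

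**Figure D4:**
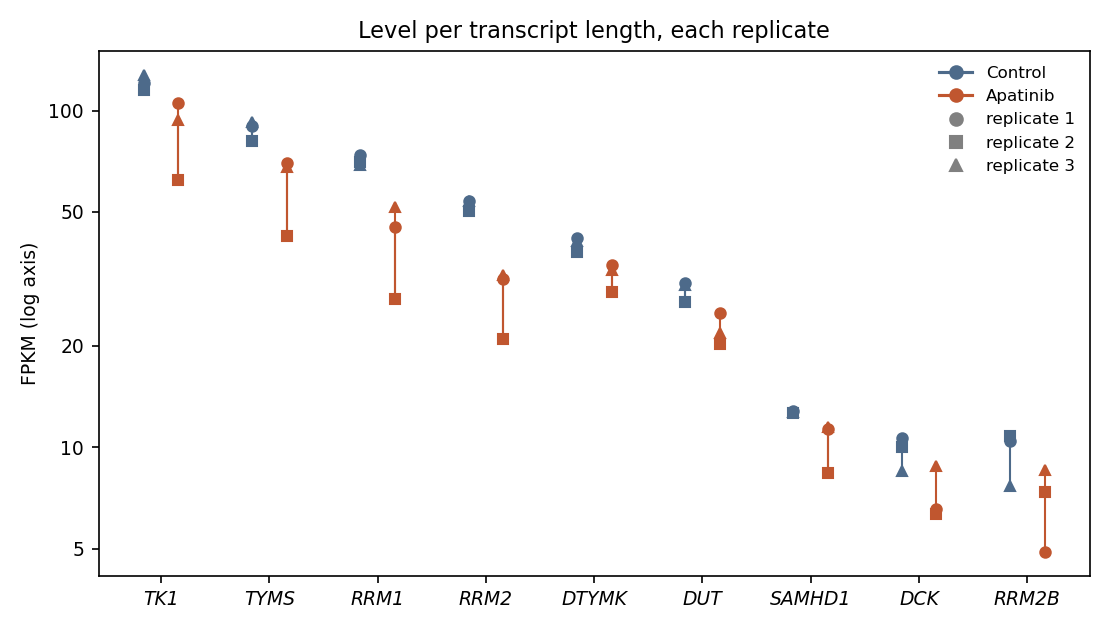
FPKM (log axis) of the 9 genes in the order of their control means, with a point for each of the 3 control (blue) and 3 Apatinib (orange) replicates and a line over their range. TK1 is highest in both groups, at means of 121 and 86.9 FPKM, and DCK and RRM2B are lowest.

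The balance between the salvage kinases TK1 and DCK was also compared within samples. The ratio in FPKM was 11.3, 11.5 and 15.0 in the control replicates and 15.96, 9.76 and 10.6 in the Apatinib replicates, a log2 difference of -0.08 (exact permutation p = 0.7, adjusted p = 0.7). The groups overlapped in this ratio, and the difference was 0.06 when Apatinib replicate 2 was left out.

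Genes with the pattern most like that of RRM2 over the 6 libraries were KIF4A, a chromosome-associated kinesin, GDI2 and XRCC5, each with a Pearson r of 0.999 in log2 CPM among 10328 genes of at least 10 CPM. For TYMS they were BRI3BP at 0.9995, TRIP13 at 0.999 and ST13 at 0.997. These are descriptions over 6 points that share their libraries and the group difference, and 232 genes for RRM2 and 238 for TYMS had an r above 0.95. The 3 nearest genes of RRM2 differed in size of change, from -0.59 for KIF4A to -0.13 for GDI2 in log2 fold change, which a correlation does not measure.

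Called genes around the 9 in metabolism went in both directions. In the list of further salvage and removal enzymes, where NME2 had 0 counts in every library and was not tested, 3 of 20 tested genes (15%, against 11.5% over all genes) were called and all rose: TYMP, which breaks down thymidine, by 0.82 on the log2 scale (edgeR FDR 0.0144), NME3, a nucleoside diphosphate kinase, by 0.64 (FDR 0.0150), and TK2, the mitochondrial thymidine kinase, by 0.52 (FDR 0.0312). The mitochondrial kinase TK2 and the cytosolic kinase TK1 thus had fold changes of opposite sign, although TK1 was not called. The list's median was 0.16. Without Control replicate 1, or without Control replicate 2, 0 of the 20 were called. In the folate cycle, which supplies the cofactor of TYMS, the mitochondrial serine hydroxymethyltransferase SHMT2 rose by 1.01 (FDR 0.0139) and MTHFD1L, a mitochondrial enzyme of formate production, rose by 0.71 (FDR 0.0157), in a list of 13 tested genes with a median of -0.21. Both lost the call without Control replicate 1 (FDR 0.0650 and 0.0887) and without Control replicate 2 (FDR 0.0623 and 0.0756).

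The calls in base synthesis were no more frequent than the 11.5% over all genes. In a pyrimidine list of synthesis and uridine salvage enzymes, 0 of 9 genes were called by edgeR, by DESeq2 or by limma, and 0 had an unadjusted p under 0.05, with CAD, which carries out the first steps, at 0.22 (edgeR FDR 0.233) and CTPS1, which makes CTP, at -0.18 (FDR 0.305). In a purine list of synthesis enzymes with the salvage enzymes HPRT1 and APRT, 1 of 17 (5.88%) was called, PPAT, which commits the pathway, at -0.57 (FDR 0.0460), and PAICS had -0.47 (FDR 0.0409) and missed the limit on the fold change. PPAT lost its call without Apatinib replicate 1 or 2 and without Control replicate 1 or 2. The medians of these lists were 0.06 and -0.09.

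Among 17 regulators of the deoxynucleotide enzymes, 4 (23.5%, against 11.5% over all genes) were called and all fell, with a list median of -0.38. They were E2F8, an E2F repressor of the late S phase, at -1.06 (FDR 0.00487), the checkpoint kinases CHEK1 at -0.59 (FDR 0.0239) and ATR at -0.67 (FDR 0.0472), and NFYB, a subunit of the factor that binds CCAAT, at -0.57 (FDR 0.0401). Its partner subunits NFYA and NFYC, named after their values were seen, were not called, at -0.32 (FDR 0.0952) and -0.04 (FDR 0.889). The count of called regulators was 1 without Apatinib replicate 2, where 8.91% of all genes were called. It was also 1 without Control replicate 1 or 2, where 1.65% and 1.8% were. Of 11 tested genes that p53 induces along with RRM2B, 2 (18.2%, against 11.5% over all genes) were called and both rose, CDKN1A, the cell cycle inhibitor p21, at 0.72 (FDR 0.0308) and GADD45A at 1.35 (FDR 0.0383), while the list's median was 0.01. GADD45A varied widely with Apatinib, at 52.5 ± 38.2 CPM against 20.6 ± 1.26 CPM in the control group (SD, n = 3 each). The count of called genes in this list was 1 without Apatinib replicate 1 or 2 (4.73% and 8.91% of all genes called). It was 0 without Control replicate 1 or 2, and 3 without Control replicate 3 (15.5% of all genes called). RRM2B itself was at -0.52, and 5 of the 11 were below 0 as well.

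**Figure D5:**
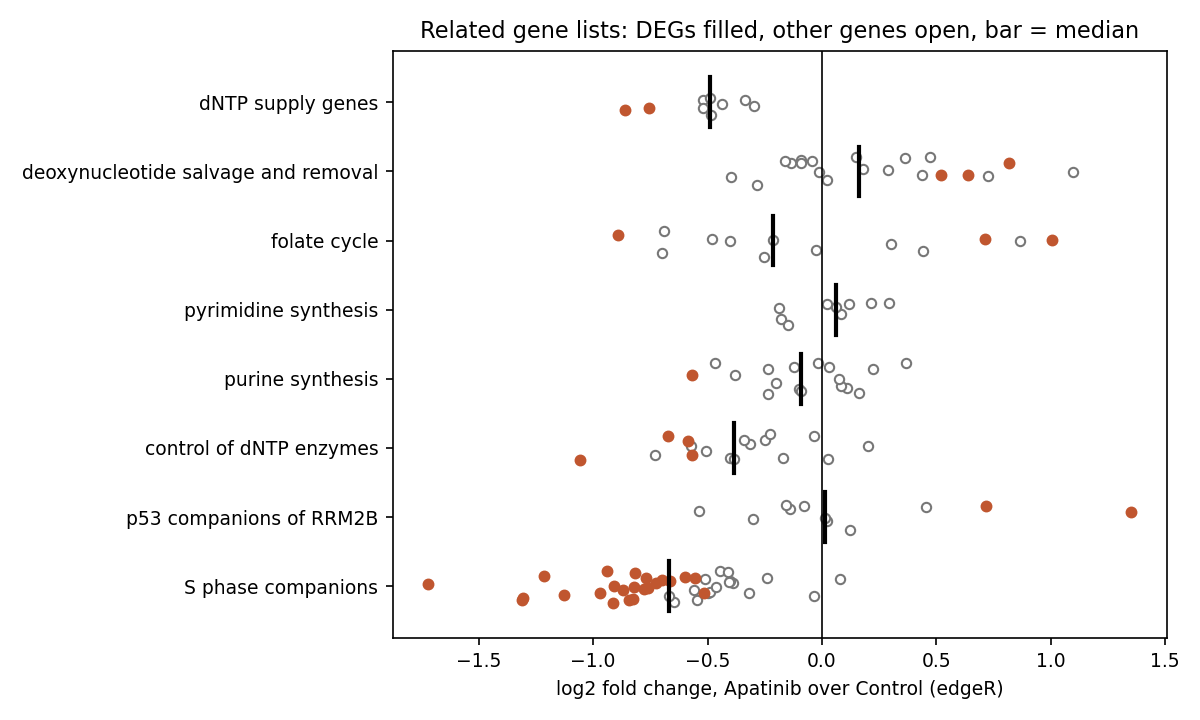
Log2 fold changes from edgeR, Apatinib over control, of the 9 genes and of the genes in each related list, with a point for each gene, filled where it was called, and a bar for the list's median. The median is -0.49 for the 9 genes, -0.67 for the S phase list and between -0.38 and 0.16 for the others.

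Genes of S phase were lower in the same libraries as most of the 9. Of 40 other genes expressed in S phase, 39 had a fold change below 0, as did 8095 of the 16290 genes tested, and 23 (57.5%) were called, all lower, against 11.5% of all genes called in either direction. Their log2 fold changes had a median of -0.67. The strongest by p were CLSPN at -1.31, CENPU at -1.13, ATAD2 at -1.21, CCNE2, the cyclin that opens S phase, at -1.72, and UHRF1 at -0.84. Their mean log2 CPM was 6.13, 6.13 and 6.003 in the control replicates and 5.48, 5.03 and 5.61 in the Apatinib replicates, so that Apatinib replicate 2, the lowest library for 8 of the 9 genes, was lowest here too. When Control replicates 1 and 2 were summed, 5 of the 40 were called, and without Control replicate 1 or 2 the count was 5 or 6, where 1.75%, 1.65% and 1.8% of all genes were called in either direction. The part of a shift in cell cycle phase in the fold changes of RRM2, RRM1, TYMS and TK1 was not tested, and in bulk RNA fewer cells in S phase and less RNA per cell cannot be told apart.

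The share of mitochondrial counts was 5.16% to 5.69% in the Apatinib replicates and 4.47% to 5.11% in the control replicates, and its part in these results was not tested. For these 9 genes, the 95% intervals extended from -1.23 at the lower end of RRM2 to 0.02 at the upper end of SAMHD1. Intervals for TYMS, RRM2B, TK1, DCK, DTYMK and DUT lay wholly below 0, although these genes did not meet the criteria for a DEG over all genes.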

How the data were processed

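RNA sequencing of 6 SW872 samples was analysed, 3 per group, grouped by their labels. The authors deposited whole-number counts that were not normalized, in 1 table for 57773 genes, and FPKM values for each sample. The submitters' processing notes name CASAVA, STAR 2.7.1a and the hg19 build. The counting program, annotation and strand setting are not given in the sources used here. The values of 1 further column, a near copy of Control replicate 3 beside the FPKM of Apatinib replicate 1, were not used. Differential expression was tested with the quasi-likelihood test of edgeR 4.0.16 in R 4.3.3 on the deposited counts (TMM scaling, filterByExpr, Benjamini-Hochberg FDR over 16290 genes), in place of the DESeq2 named in the paper's methods, whose criteria for DEGs were kept. CPM used TMM scaling. The script was tested on simulated data with 200 changed genes. Ratios were compared with exact two-sided permutation tests. Alternatives were DESeq2 1.42.0, limma 3.58.1 on log2(FPKM + 1) or log2(FPKM + 0.1) for genes with a mean FPKM over 0.5, other scaling and filters, a replicate block, summed controls, and each replicate left out.

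The 9 genes, the related lists and the rule for names were chosen with earlier results of these data known, and the study singled out RRM2 and TYMS in these samples. The rule named the 9, up to 5 called genes of each list by p (or 2 where fewer than 2 were called), and the 3 genes nearest RRM2 and TYMS in pattern. Gene overlaps came from GENCODE 29 on GRCh38, and promoter windows, 250 bases before to 50 after a start, from RefSeq. Protein sequences were not analysed here. Results for 1 gene of the folate list are not reported here.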

Additional observations from a re-analysis of the deposited data

How the results depend on the processing

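No fold change of the 9 genes changed direction under any alternative, and calls depended on the test and on the close controls. Over all genes, 1866 of 16290 tested (11.5%) were DEGs, against 292 of 16731 (1.75%) with Control replicates 1 and 2 summed. DESeq2 called 2054 of 14901 (13.8%), and limma on FPKM (pseudocount 1 or 0.1) called 796 or 810 of 15829. Without a filter 2559 of 32596 genes were called, and with the replicate block 2215 of 16290. Of the 9 genes, 2 were called by the analysis as reported, 4 by DESeq2, 4 without a filter, 5 with the replicate block, 0 with the controls summed and 1 by limma with either pseudocount. RRM1 was -0.76 with summed controls (FDR 0.102), and -0.81 (FDR just over 0.05) or -0.83 (FDR 0.0531) by limma, all uncalled. RRM2 was -0.89 with summed controls. RRM2B and TYMS gained a call with DESeq2 (-0.51 and -0.52), without a filter (-0.50 and -0.51) and with the replicate block (-0.53 and -0.56), and TK1 with the block (-0.53). Lists, in the order salvage, folate, purine, regulators, p53 and S phase, held 20, 13, 17, 17, 11 and 40 tested genes. In that order they had 3, 3, 1, 4, 2 and 23 calls. With summed controls these were 0, 1, 0, 1, 0 and 5, with limma at pseudocount 0.1 they were 1, 1, 0, 1, 0 and 14, and pseudocount 1 gave the same first 5. DESeq2 gave 7 regulators and 1 p53 gene, the block 5 folate genes and 7 regulators, no filter 6 folate genes, and FDR alone 2 purine genes. The replicate numbers are only names: same-numbered deviations correlated at -0.26, 0.08 and -0.22 across genes. Leaving out each replicate gave 275 to 2594 DEGs, 0 to 4 of the 9 genes, and 0 to 4, 1 to 6, 0 to 1, 1 to 5, 0 to 3 and 5 to 27 list calls in the same order. Log2 fold changes then ran from -0.93 to -0.52 for RRM1, -0.97 to -0.67 for RRM2, -0.70 to -0.36 for RRM2B, -0.64 to -0.31 for TYMS, -0.57 to -0.39 for DUT, -0.41 to -0.23 for DTYMK, -0.68 to -0.27 for TK1, -0.57 to -0.36 for DCK and -0.39 to -0.15 for SAMHD1. The log2 ratios were not tested with a replicate left out: RRM2 to RRM1 ran from -0.15 to -0.02, RRM2 to RRM2B from -0.74 to -0.15, and TK1 to DCK, at -0.08, ran from -0.29 to 0.06, turning above 0 without Apatinib replicate 2, Apatinib replicate 3 or Control replicate 3. The cause of these changes was not tested.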

Other observations

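Exon overlaps in GENCODE 29 touched other genes of the 9 as well. RRM2 shared 1077 exon bases, 20.2% of its total, with AC007240.1 on the same strand, DUT shared 14.5% with AC023355.1 and SAMHD1 10.3% with TLDC2 on the opposite strand, and DCK shared 6.17% with MOB1B on the same strand. RRM1 shared 1.51% with its antisense gene RRM1-AS1, and RRM2B, DTYMK and TK1 shared none. A gap between units as seen for TYMS also appeared in CD68, a macrophage gene named after its values were seen, which had 0 to 1 counts per library but 1.79 to 11.8 FPKM. NME2, a nucleoside diphosphate kinase, had 0 counts in all 6 libraries but mean FPKM values of 32.8 in the control group and 27.9 in the Apatinib group. The cause was not tested.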
